A study of Mus musculus with 24 samples.

Results

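The phagocyte NADPH oxidase was followed through 5 transcripts, Cybb, Cyba, Ncf1, Ncf4 and Rac2, in the brain of mice after traumatic brain injury (TBI). They were taken by symbol from the 36333 genes of the deposited table, and all 5 passed the filter on low values that left 17267 genes for testing. Bulk RNA was sequenced from 24 male mice of 12 to 16 weeks at 5 days post injury (dpi), with 1 library per mouse. The 20 mice with TBI had received a controlled cortical impact (CCI) to the right parietal cortex. Vehicle was given to 5 of them. PLX3397, which blocks the receptor CSF1R on which microglia depend for survival, was given to 5 mice in chow at 290 mg per kg of food from 90 min after CCI. Anakinra, the recombinant antagonist of the interleukin-1 receptor IL1R1, was injected subcutaneously at 100 mg per kg into 5 mice at 5 min and at 24, 48 and 72 h after CCI. A further 5 mice received PLX3397+Anakinra, and 4 sham mice had anesthesia and a skin incision without craniotomy. By the methods the sham mice also received vehicle. All groups were of 1 strain, which the labels write as C57BL6N and the methods as C57BL/6JRj. The labels name the tissue as cortex and the methods describe the lesioned upper quadrant of the brain, and markers of striatal neurons summed to 820 to 983 TPM in the group means.

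The phagocyte NADPH oxidase moves electrons from NADPH across a membrane onto oxygen and so makes superoxide, the start of the oxidative burst with which phagocytes kill microbes. Cybb encodes gp91phox (Nox2), the catalytic subunit that carries the electrons, and Cyba encodes p22phox, its partner in the membrane, without which gp91phox is unstable. Ncf1 (p47phox) is the organizer that is phosphorylated on activation and carries the cytosolic subunits to the membrane, Ncf4 (p40phox) binds phosphoinositides on phagosomes, and Rac2 is the GTPase of blood cells that helps to switch the enzyme on. In the brain the complex is known mainly from microglia and from myeloid cells that enter after injury.

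In the GENCODE M21 annotation of GRCm38, Cybb lies on chromosome X (9435252 to 9487771, minus strand), Cyba on chromosome 8 (122424776 to 122432930, minus strand), Ncf1 on chromosome 5 (134220053 to 134229625, minus strand), Ncf4 on chromosome 15 (78244801 to 78262580, plus strand) and Rac2 on chromosome 15 (78559167 to 78572783, minus strand). Ncf1 shares 4303 bp at its 3′ end (134220053 to 134224355) with Gtf2ird2 on the plus strand, a gene with a mean of 13.4 TPM over the 24 libraries. Whether the counting used strand is not given in the sources used here, and reads in that overlap cannot be assigned to either gene with certainty. Cyba lies wholly inside the annotated plus-strand gene Gm20388. The 250 bases before the start site are shown for 3 of the 5 members, from the RefSeq promoters of GRCm38.p6. They are shown because these genes moved in the same direction between the groups. A further reason was that Cybb and Cyba, whose proteins form 1 membrane unit, differed in how far they moved. The RefSeq start site of Cybb, 9469324, lies inside the GENCODE span, which reaches further upstream. Capitals mark a match to TGANTCA, a pattern for AP-1 sites searched with any base at N. The same windows with 50 bases after the start were searched on both strands for it and for GAGGAA. The latter is the core of the motif of the myeloid factor PU.1.
Cybb (chrX:9469325-9469574, minus strand): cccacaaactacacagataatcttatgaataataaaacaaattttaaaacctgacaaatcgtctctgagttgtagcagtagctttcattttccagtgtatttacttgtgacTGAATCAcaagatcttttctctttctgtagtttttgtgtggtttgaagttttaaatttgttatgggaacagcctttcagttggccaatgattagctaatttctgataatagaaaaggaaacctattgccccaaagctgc
Cyba (chr8:122432941-122433190, minus strand): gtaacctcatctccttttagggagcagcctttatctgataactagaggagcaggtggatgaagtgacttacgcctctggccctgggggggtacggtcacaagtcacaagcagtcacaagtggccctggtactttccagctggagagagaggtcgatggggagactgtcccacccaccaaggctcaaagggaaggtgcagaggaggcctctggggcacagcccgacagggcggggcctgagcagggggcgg
Ncf1 (chr5:134229626-134229875, minus strand): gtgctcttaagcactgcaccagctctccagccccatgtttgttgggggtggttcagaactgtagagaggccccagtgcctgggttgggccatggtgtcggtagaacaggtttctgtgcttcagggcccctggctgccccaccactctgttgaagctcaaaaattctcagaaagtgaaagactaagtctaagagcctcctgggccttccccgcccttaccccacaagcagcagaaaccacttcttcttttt
The Cybb window held 1 AP-1 match, TGAATCA, beginning at base -139 from the start site, and 1 GAGGAA match on the opposite strand, read as TTCCTC, beginning at base 10 after the start. Neither motif was found in the windows of Cyba and Ncf1. Of 32851 mouse promoters of the same 300 bases, 7.81% held TGANTCA and 28.3% held GAGGAA. The windows of Ncf4 and Rac2 are not shown.

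The values are labelled TPM, a unit scaled by gene length and to the same total in each library. The methods add that CLC names this unit CPM, a term for values without length scaling. Comparisons of levels between genes therefore rest on the TPM label, and those between mice do not. Cybb, the catalytic subunit, was scarce in sham mice, with 0.444, 0.311, 0.573 and 0.321 TPM. After TBI with vehicle it stood at 17.5, 11.1, 14.7, 14.2 and 13.7 TPM. Every injured vehicle mouse was far above every sham mouse, and the mean went from 0.412 ± 0.123 TPM (SD, n = 4) to 14.3 ± 2.30 TPM (SD, n = 5). With PLX3397 the values were 4.09, 6.93, 5.52, 7.40 and 6.71 TPM, a mean of 6.13 ± 1.34 TPM (SD, n = 5). With Anakinra they were 10.3, 8.63, 9.68, 10.4 and 13.8 TPM, a mean of 10.6 ± 1.95 TPM (SD, n = 5). With PLX3397+Anakinra they were 3.47, 3.95, 2.69, 2.61 and 2.63 TPM, a mean of 3.07 ± 0.610 TPM (SD, n = 5). The groups with PLX3397 did not overlap the vehicle group, the combination did not overlap PLX3397 alone, and Anakinra overlapped vehicle.

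Cyba, the membrane partner of Cybb, was the most abundant member in every group. It had 17.97, 13.8, 18.97 and 12.6 TPM in sham mice and 177, 108, 188, 195 and 160.4 TPM with vehicle. The means were 15.8 ± 3.11 TPM (SD, n = 4) and 166 ± 34.7 TPM (SD, n = 5). One vehicle mouse, J17B, was well below the other 4, which lay between 160 and 195 TPM. With PLX3397 Cyba was at 75.9, 125, 108, 79.2 and 98.4 TPM, a mean of 97.1 ± 20.2 TPM (SD, n = 5). With Anakinra it was at 175, 132, 135, 152 and 146 TPM, a mean of 148 ± 17.1 TPM (SD, n = 5). With PLX3397+Anakinra it was at 80.7, 76.3, 82.6, 73.6 and 54.01 TPM, a mean of 73.4 ± 11.4 TPM (SD, n = 5). PLX3397 overlapped vehicle only through mouse J17B, and the combination overlapped PLX3397 alone.

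Ncf1, the organizer, was already clearly measured in sham mice, with 6.70, 6.90, 7.21 and 6.86 TPM, the narrowest spread of any member there relative to its mean. With vehicle it reached 45.1, 33.6, 48.8, 50.5 and 49.4 TPM. The mean rose from 6.92 ± 0.214 TPM (SD, n = 4) to 45.5 ± 6.96 TPM (SD, n = 5), without overlap. With PLX3397 the values were 14.8, 25.8, 15.96, 18.8 and 19.03 TPM, a mean of 18.9 ± 4.26 TPM (SD, n = 5). With Anakinra they were 45.7, 38.8, 42.4, 43.9 and 45.2 TPM, a mean of 43.2 ± 2.76 TPM (SD, n = 5). With PLX3397+Anakinra they were 16.4, 14.7, 13.7, 14.8 and 12.99 TPM, a mean of 14.5 ± 1.27 TPM (SD, n = 5). Both groups given PLX3397 lay below all vehicle mice, and they overlapped each other.

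Ncf4, the phosphoinositide-binding subunit, was the least abundant member after injury. It was at 0.525, 0.752, 0.463 and 1.08 TPM in sham mice and 10.9, 6.16, 7.77, 8.99 and 8.89 TPM with vehicle, means of 0.706 ± 0.281 TPM (SD, n = 4) and 8.55 ± 1.75 TPM (SD, n = 5). The 2 groups were far apart, although the vehicle mice spread widely. With PLX3397 it was at 2.61, 4.07, 5.26, 2.89 and 4.14 TPM, a mean of 3.79 ± 1.07 TPM (SD, n = 5). With Anakinra it was at 7.86, 7.43, 7.69, 8.26 and 7.49 TPM, a mean of 7.75 ± 0.332 TPM (SD, n = 5). With PLX3397+Anakinra it was at 1.598, 2.60, 2.54, 2.97 and 2.82 TPM, a mean of 2.51 ± 0.537 TPM (SD, n = 5). Both groups given PLX3397 again lay below all vehicle mice and overlapped each other, and all Anakinra values fell inside the vehicle range.

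Rac2, the blood cell GTPase, was at 2.67, 1.21, 1.24 and 1.70 TPM in sham mice and 19.2, 14.9, 21.6, 19.96 and 18.8 TPM with vehicle, means of 1.70 ± 0.681 TPM (SD, n = 4) and 18.9 ± 2.47 TPM (SD, n = 5). No vehicle mouse came near the sham range. With PLX3397 the values were 6.16, 11.8, 6.62, 8.74 and 8.44 TPM, a mean of 8.35 ± 2.21 TPM (SD, n = 5). With Anakinra they were 19.9, 15.8, 18.8, 18.7 and 18.4 TPM, a mean of 18.3 ± 1.54 TPM (SD, n = 5). With PLX3397+Anakinra they were 8.14, 6.63, 5.84, 5.07 and 4.72 TPM, a mean of 6.08 ± 1.37 TPM (SD, n = 5). The order of the group means was the same as for the other 4 members, from vehicle through Anakinra, PLX3397 and PLX3397+Anakinra to sham. Vehicle and Anakinra overlapped for all 5 members, and PLX3397 and the combination for 4 of them, Cybb being the exception. Most genes overlapped in these comparisons. Of all genes tested, 1.42% with Anakinra lay below vehicle and 1.14% above it without overlap. With the combination 0.764% lay below PLX3397 and 0.365% above it.

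**Figure D1:**
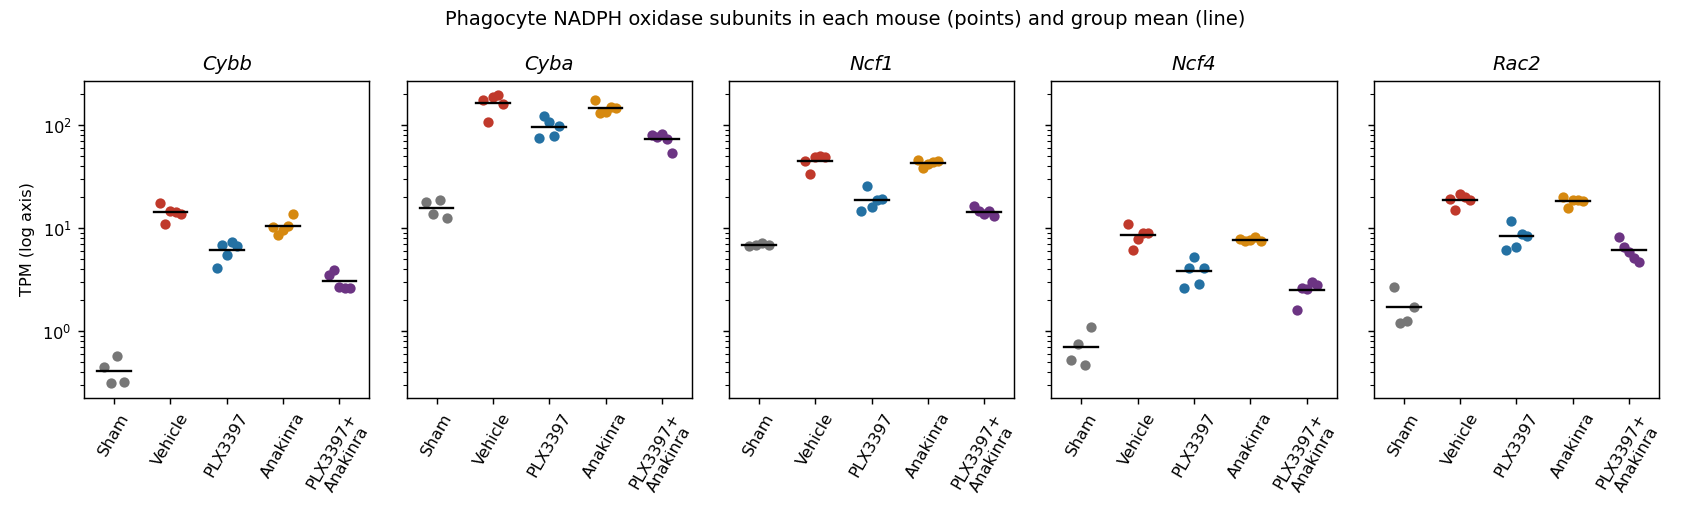
TPM (log axis) of the 5 subunit transcripts in each of the 24 mice (points) with the group mean (line), by treatment group on the horizontal axis. For each transcript all injured mice lie above all sham mice. The means of the groups given PLX3397 lie below those of vehicle and Anakinra. Of all genes tested, 21.7% with vehicle, 18.7% with PLX3397, 21.3% with Anakinra and 16.9% with PLX3397+Anakinra lay above sham without overlap.

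Within a group, the members other than Ncf4 tended to vary together from mouse to mouse. Vehicle mouse J17B, PLX3397 mouse J01 and Anakinra mouse J06 each had the lowest value of their group for all 5 members. In PLX3397+Anakinra, mouse J17 was lowest for 3 of them, and in sham no mouse was lowest for more than 2. Mice J17B, J01, J06 and J17 deviated from their group means by -0.40, -0.37, -0.16 and -0.17 in the mean log2(TPM + 1) of the members, and by -0.14, -0.11, -0.012 and -0.00964 in the mean of 8 microglial genes. After subtraction of the group means, Pearson's r over the 24 libraries was 0.719 between Ncf1 and Rac2 and 0.700 between Cyba and Ncf1, whereas Ncf4 had values of -0.054 (with Rac2) to 0.254 (with Cyba). These correlations describe libraries that share their composition and are given without a test.

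Whether TBI changed the transcripts of the complex was asked by comparing vehicle with sham. Sham mice had no craniotomy, so the impact cannot be told apart from the opening of the skull. All 5 members rose, by 3.42 (SE 0.14) on the log2(TPM + 1) scale for Cybb, 3.30 (SE 0.16) for Cyba, 2.90 (SE 0.16) for Rac2, 2.54 (SE 0.12) for Ncf1 and 2.48 (SE 0.15) for Ncf4. On this scale 1 TPM is added before the logarithm, so that the change of members near 0 in sham, Cybb and Ncf4 above all, is understated. The limma test across all genes gave adjusted p-values from 7.33e-16 for Cybb to 1.11e-12 for Ncf4. In the same comparison 26.6% of all genes tested were called higher. All 5 members lay above sham without overlap, as did 21.7% of genes. The summed level of the 5 members was 25.6 ± 3.25 TPM in sham and 253 ± 46.3 TPM in vehicle (SD, n = 4 and 5), of which Cyba made up 61.5% and 65.2%. The mice also differed in cell type markers, since the summed TPM of 8 microglial markers was 278 to 303 in sham and 1189 to 1549 in vehicle, and that of 8 monocyte and macrophage markers 17.6 to 26.7 in sham and 1283 to 2558 in vehicle. Lyz2 made up nearly all of the latter sum, with means of 17.1 of 21.97 TPM in sham and 2072 of 2127 TPM in vehicle. In bulk tissue, fewer or more cells of a type and less or more RNA per cell cannot be told apart.

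The TPM ratios between members differed between sham and vehicle mice, but no log ratio of a pair passed the adjusted threshold. Cyba exceeded Cybb 39.3-fold (SD 4.66, range 33.1 to 44.3) in sham mice and 11.6-fold (SD 1.69, range 9.77 to 13.7) in vehicle mice. Ncf1 exceeded Cybb 17.8-fold (SD 4.72) in sham and 3.21-fold (SD 0.424) in vehicle. Neither pair of ranges overlapped. The log2(TPM + 1) scale compresses the low Cybb values of sham mice. On it Cybb rose 0.88 more than Ncf1 and 0.94 more than Ncf4 (exact two-sided permutation p = 0.0159 each, adjusted p = 0.0794 over 50 pairs and comparisons). That p is the smallest that 4 against 5 mice allow. Cybb rose only 0.13 more than Cyba (exact permutation p = 0.349, adjusted p = 0.541). With 0.1 TPM added instead of 1, Cybb rose 1.45 more than Cyba. The difference of Cyba from Ncf4 went from 0.82 to -0.091, so these sizes depend on the scale.

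PLX3397 was compared with vehicle to ask how far the transcripts of the complex were lower with this drug alone. All 5 members fell. The log2 difference was -1.23 (SE 0.11) for Ncf1, -1.11 (SE 0.15) for Rac2, -1.11 (SE 0.13) for Cybb, -1.003 (SE 0.14) for Ncf4 and -0.76 (SE 0.15) for Cyba, with limma adjusted p-values from 2.00e-08 for Ncf1 to 0.00141 for Cyba. Of all genes tested, 6.66% were called lower. By the criteria of the study (unadjusted p below 0.05, ratio of mean TPM above 2 and difference above 4 TPM), 4 of 5 members were lower against 0.932% of genes, the exception being Cyba with its ratio below 2. The same 4 did not overlap between the groups, and neither did 4.91% of genes that were lower. Cyba fell least, and the difference between Cyba and Ncf1 was 0.47 on the log2 scale (exact permutation p = 0.00794, the smallest that 5 against 5 mice allow, adjusted p = 0.0794). The same mice had 523 to 798 TPM of summed microglial markers and 738 to 1343 TPM of monocyte and macrophage markers, against the vehicle ranges given above. Of these lists 8 of 8 microglial and 5 of 7 tested monocyte and macrophage markers were called lower, and their part in the fall of the members was not tested.

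Anakinra alone left all 5 members without a call against vehicle. The log2 differences were -0.40 for Cybb (95% interval -0.68 to -0.12), -0.14 for Cyba (-0.46 to 0.17), -0.11 for Ncf4 (-0.41 to 0.19), -0.06 for Ncf1 (-0.29 to 0.16) and -0.04 for Rac2 (-0.35 to 0.27). Cybb was the only member with an unadjusted p below 0.05 in limma (adjusted p = 0.206). Its values in 4 of the 5 Anakinra mice were below the lowest vehicle mouse. Calls were rare in this comparison altogether, with 0.0463% of genes lower and 0.0695% higher, although 2148 of 17267 genes had an unadjusted p below 0.05. Summed monocyte and macrophage markers were 1001 to 1750 TPM and microglial markers 1277 to 1449 TPM in these mice.

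PLX3397+Anakinra was compared with vehicle, and all 5 members fell. Cybb had the largest difference, -1.91 (SE 0.13), followed by Ncf1 with -1.57 (SE 0.11), Rac2 with -1.50 (SE 0.15), Ncf4 with -1.44 (SE 0.14) and Cyba with -1.15 (SE 0.15). Adjusted p-values in limma ran from 1.72e-10 for Ncf1 to 4.22e-06 for Cyba. Lower calls made up 9.6% of all genes here, and they held 8 of 8 microglial and 6 of 7 tested monocyte and macrophage markers. All 5 members met the criteria of the study, as did 1.55% of genes, and all 5 were without overlap, as were 6.62% of genes. Cybb fell 0.76 further than Cyba and 0.40 further than Rac2, and Cyba fell 0.42 less than Ncf1 (exact permutation p = 0.00794 each, adjusted p = 0.0794). Of the 50 pairs and comparisons tested in this way, 18 had an unadjusted p below 0.05 and 0 an adjusted p below 0.05, and with so few mice the exact test is close to its limit.

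**Figure D2:**
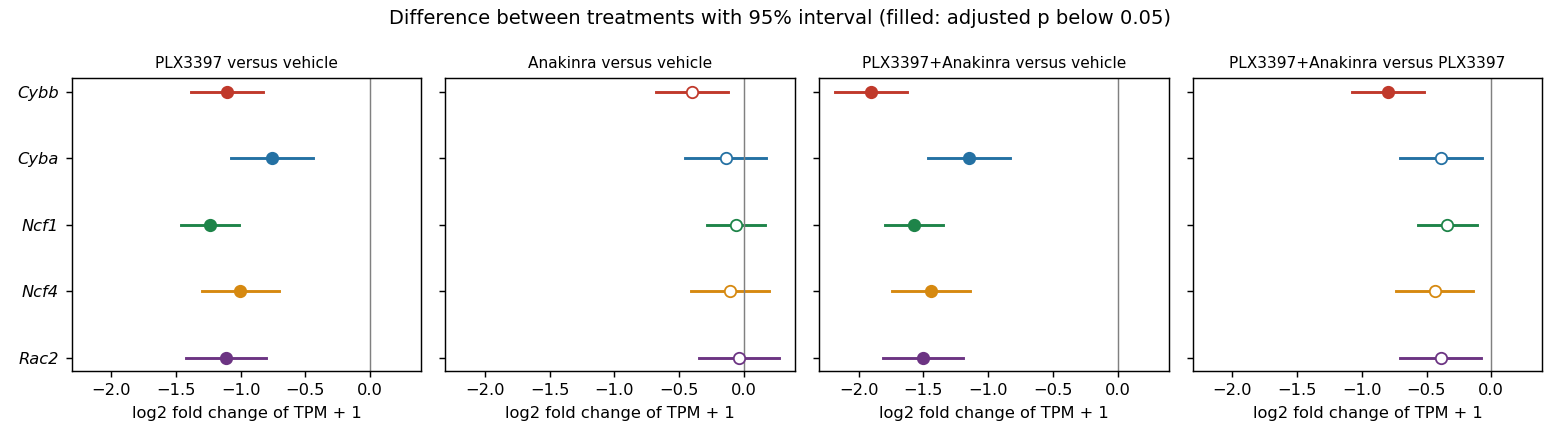
Difference in log2(TPM + 1) between treatments (points) with its 95% interval (lines) from the limma model, for the 5 transcripts in 4 comparisons, filled where the adjusted p was below 0.05. All 5 are filled for PLX3397 and for PLX3397+Anakinra against vehicle, none for Anakinra, and only Cybb (-0.80) for the combination against PLX3397.

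The question of what Anakinra added to PLX3397 was addressed by comparing the combination with PLX3397 alone. Cybb was lower by a log2 difference of -0.80 (SE 0.13, 95% interval -1.08 to -0.52, limma adjusted p = 0.00599), from a mean of 6.13 to 3.07 TPM, and all 5 mice with the combination were below all 5 with PLX3397. With a model of these 10 mice alone, the adjusted p was 0.0625 for the same difference. Only 0.145% of genes were called lower, 25 in number, and 0.764% were lower without overlap, Cybb being the 1 member in both counts. The criteria of the study were met by 0.0927% of genes and by 0 members. The fall of Cybb was less than 4 TPM and its ratio of means did not exceed 2, and the count was also 0 when the difference had only to exceed 1 TPM. The other members had differences of -0.44 (Ncf4), -0.39 (Rac2), -0.39 (Cyba) and -0.34 (Ncf1), all with unadjusted p-values between 0.00478 and 0.0175 and adjusted p-values between 0.361 and 0.563. Cybb was lower by 0.46 more than Ncf1 (exact permutation p = 0.0159, adjusted p = 0.0794) and by 0.41 more than Rac2 (p = 0.0238, adjusted p = 0.108).

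Markers of monocytes and macrophages moved in the same comparison. Their summed level was 738 to 1343 TPM with PLX3397 and 336 to 441 TPM with PLX3397+Anakinra, and 3 of the 7 markers tested were called lower. These were Lyz2, the lysozyme of macrophages (974 and 378 TPM), F13a1, the coagulation factor XIII chain made by macrophages (12.2 and 3.57 TPM), and Ms4a7, a membrane protein of macrophages (6.44 and 2.11 TPM). Of the 8 microglial markers 0 were called, and their sums overlapped at 523 to 798 and 464 to 635 TPM. Neutrophil markers summed to 15.8 to 52.1 and 12.0 to 28.5 TPM, with 1 of 4 tested markers, Mmp8, called lower (-1.02) and Ly6g at 0 in all 10 mice, and lymphocyte markers to no more than 4.06 TPM, with Trbc2 at 0 in all 10.

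The interaction, the effect of Anakinra in mice given PLX3397 minus its effect in mice without PLX3397, was called for 0 of 17267 genes in limma (0% lower), and 1395 had an unadjusted p below 0.05. For the members it was -0.40 for Cybb (unadjusted p = 0.0462, adjusted p = 0.607), -0.35 for Rac2, -0.33 for Ncf4, -0.28 for Ncf1 and -0.25 for Cyba. All 5 values were below 0, and the 95% interval excluded 0 only for Cybb (-0.79 to -0.01). The combination was also lower than Anakinra alone for all 5 members, with log2 differences of -1.01 for Cyba to -1.51 for Ncf1 (limma adjusted p at most 3.10e-05), beside 8.1% of genes called lower.

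None of the treatments brought the members to the sham level. Against sham, all 5 members were called higher with PLX3397 (log2 differences 1.304 for Ncf1 to 2.54 for Cyba, beside 22.7% of genes), with Anakinra (2.37 for Ncf4 to 3.16 for Cyba, beside 25.1%) and with PLX3397+Anakinra (0.97 for Ncf1 to 2.15 for Cyba, beside 20.7%). These comparisons share the sham mice. Expressed as the TPM above the sham mean, in percent of the vehicle mean above the sham mean, Cybb kept 41.3% ± 9.65 with PLX3397, 73.5% ± 14.1 with Anakinra and 19.2% ± 4.41 with the combination (SD, n = 5). Cyba kept 54.2% ± 13.5, 88.1% ± 11.4 and 38.4% ± 7.62. Ncf1 kept 31.0% ± 11.1, 94.1% ± 7.15 and 19.7% ± 3.30. Cyba had the highest share with either PLX3397 treatment, and Cybb the lowest with Anakinra. For Ncf4 the shares were 39.4%, 89.7% and 23.0%, and for Rac2 38.6%, 96.5% and 25.4%.

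**Figure D3:**
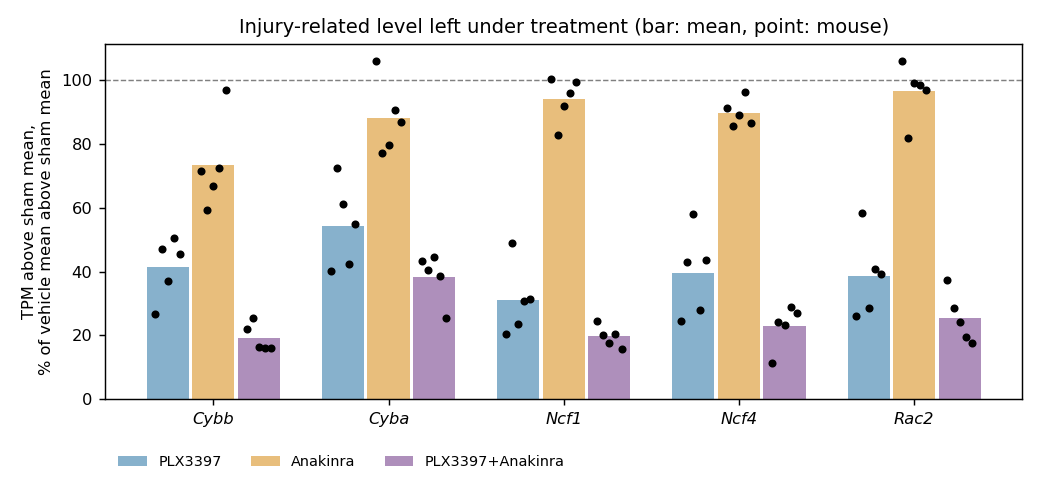
TPM above the sham mean in percent of the vehicle mean above the sham mean (dashed line, 100%), as bars for the group mean and points for each of 5 mice, by transcript and treatment. Cyba keeps 38.4% with PLX3397+Anakinra, the other 4 transcripts between 19.2% and 25.4%.

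Under treatment the mean TPM ratio of Cyba to Cybb was between those of vehicle and sham mice. It was 16.3 (SD 3.61, range 10.7 to 19.5) with PLX3397, 14.3 (SD 2.33, range 10.6 to 16.9) with Anakinra and 24.4 (SD 4.90, range 19.3 to 30.7) with PLX3397+Anakinra. The combination overlapped neither vehicle nor sham, and its lowest mouse fell just inside the range of PLX3397. This position depends on the scale, since Cybb minus Cyba in log2(TPM + 1) was -3.56 in sham, -3.43 in vehicle and -4.19 with the combination, which was then beyond sham. The ratio of Cyba to Ncf1 was 3.62 (SD 0.353) in vehicle, 5.21 (SD 0.936) with PLX3397, 3.42 (SD 0.253) with Anakinra and 5.06 (SD 0.668) with the combination, and 2.29 (SD 0.432) in sham mice. Both groups given PLX3397 were thus further from sham than vehicle was, and Anakinra was not. Between the cytosolic subunits, Ncf1 exceeded Ncf4 10.96-fold (SD 4.06) in sham, 5.41-fold (SD 0.789) in vehicle, 5.23-fold (SD 1.44) with PLX3397, 5.58-fold (SD 0.338) with Anakinra and 6.17-fold (SD 2.31) with the combination, and the ranges of all injured groups overlapped.

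**Figure D4:**
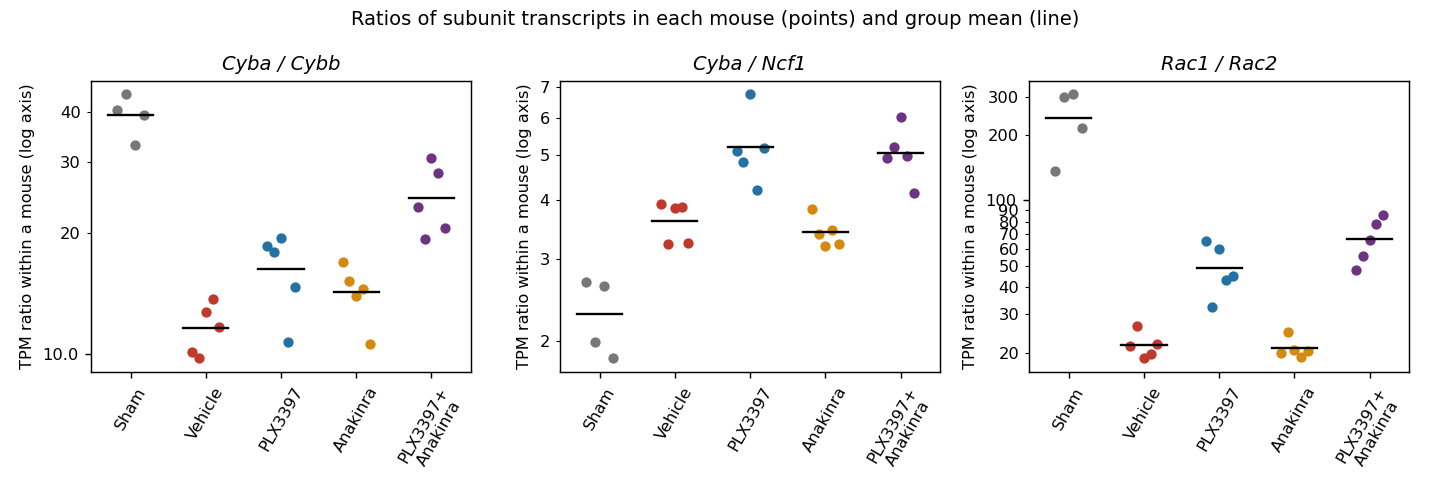
Ratio of TPM within each mouse (points, log axes) with the group mean (line) for Cyba to Cybb, Cyba to Ncf1 and Rac1 to Rac2, by treatment group. Cyba to Cybb is 39.3 in sham, 11.6 in vehicle and 24.4 with PLX3397+Anakinra, and Rac1 to Rac2 is 239, 21.7 and 66.6.

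The members were also set against the mean log2(TPM + 1) of 8 microglial markers (among them Tmem119, P2ry12 and Cx3cr1) in the same mouse. Relative to them, all 5 members rose with injury, by 0.82 (Ncf4) to 1.76 (Cybb), each with an exact two-sided permutation p = 0.0159 and an adjusted p = 0.0441 over 25 tests. With PLX3397 against vehicle, 4 members had relative differences of 0.048 (Ncf1) to 0.28 (Ncf4) that did not pass (exact permutation p from 0.103 to 0.643), whereas Cyba was 0.52 higher (exact permutation p = 0.0159, adjusted p = 0.0441). With the combination against PLX3397, Cybb was 0.74 lower relative to them (exact permutation p = 0.00794, adjusted p = 0.0441) and Ncf1 0.28 lower (p = 0.0159, adjusted p = 0.0441). Against vehicle, Cybb was 0.56 lower (exact permutation p = 0.00794, adjusted p = 0.0441).

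Set against the mean of the 7 tested monocyte and macrophage markers instead, a reference added after the data were seen, the picture differed. For the combination against PLX3397 the relative difference of Cybb was 0.017 (exact permutation p = 0.897), a fall close to the mean fall of the markers. That p does not show that the sizes were equal. The single markers ran from -1.50 (F13a1) to -0.16 (Ccr2) in this comparison, so the mean joins unlike changes. The other members were 0.38 (Ncf4) to 0.48 (Ncf1) higher relative to them, with exact permutation p-values of 0.0159 to 0.135 and adjusted p-values of at least 0.0794. With PLX3397 against vehicle the differences were -0.38 (Ncf1) to 0.10 (Cyba). The relative rise of Ncf1 and Ncf4 with injury turned to -0.18 and -0.24 with this reference.

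**Figure D5:**
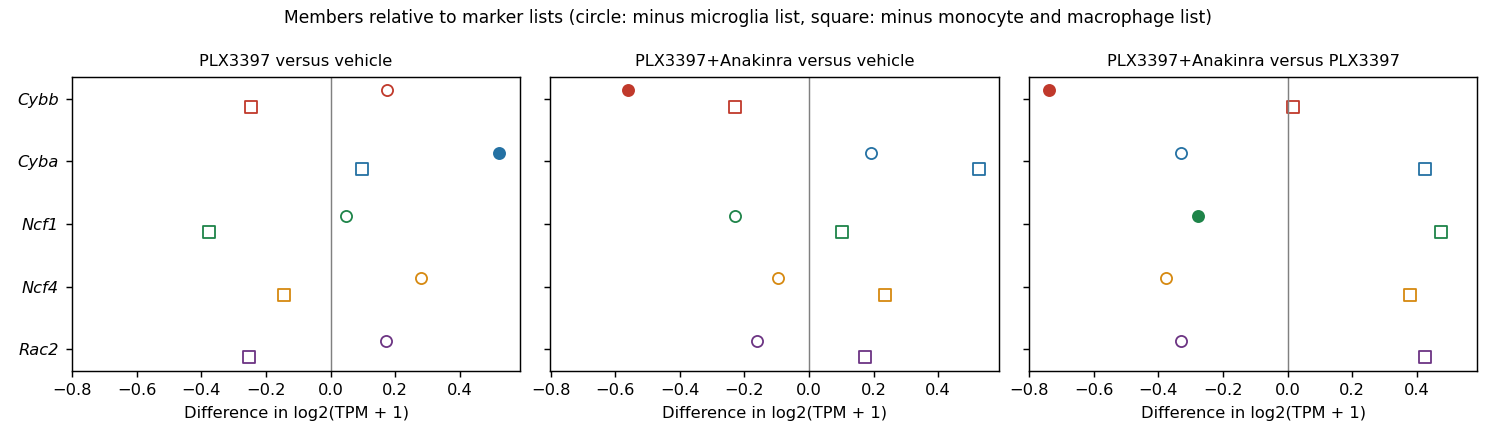
Difference between treatments in a member's log2(TPM + 1) after subtracting the mean of the microglial markers (circles) or of the monocyte and macrophage markers (squares) in the same mouse, filled where the adjusted exact permutation p was below 0.05. For PLX3397+Anakinra against PLX3397, Cybb lies at -0.74 with the first reference and at 0.017 with the second.

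Of the proteins that work with the complex, Rac1, the widely expressed relative of Rac2, was abundant in all mice, with means of 368 TPM in sham, 404 TPM in vehicle and 388 TPM with the combination. Its rise with injury was 0.13 (limma adjusted p = 0.00290), and it had no call under treatment. Rac1 therefore exceeded Rac2 239-fold in sham, 21.7-fold in vehicle, 49.1-fold with PLX3397 and 66.6-fold with the combination. Rap1a, a GTPase found with the membrane subunits, had means of 49.2, 68.5 and 56.6 TPM in sham, vehicle and combination, and fell with the combination by 0.27 (limma adjusted p = 0.00185). Cybc1, the chaperone that gp91phox and p22phox need for their expression (listed under its older symbol BC017643), had 19.4, 23.5 and 20.8 TPM. It was called higher in vehicle than in sham (0.26, limma adjusted p = 0.00747) and had no call in any treatment against vehicle.

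Other NADPH oxidases were scarce. Of 9 oxidase and organizer genes, 2 reached the filter. Nox4, an oxidase that makes hydrogen peroxide, went from 0.160 TPM in sham to 0.755 TPM in vehicle (0.59, limma adjusted p = 9.88e-05) and stayed between 0.790 and 0.872 TPM in the treated groups, without a call. Noxo1, an organizer related to Ncf1, had 2.16 TPM in sham, 3.29 TPM in vehicle and 2.49 TPM with the combination, where it fell by 0.31 (limma adjusted p = 0.0258). The list had 0 calls there without vehicle mouse J18B or J20B or combination mouse J04, J09 or J10. The group means of Nox1, Nox3, Duox1, Duox2, Duoxa1, Duoxa2 and Noxa1 did not exceed 0.454 TPM (Duox2 in sham), and they were not tested.

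Genes upstream of the assembly, which hold the receptors, kinases and exchange factors that switch the oxidase on, moved with the members. Of 18 genes, 14 rose with injury and 3 fell, beside 26.6% and 27.7% of all genes. With the combination 15 were lower than vehicle and 0 higher (median -1.21, all genes 0.014), beside 9.6% of all genes lower. With PLX3397 also 15 were lower (median -0.96), beside 6.66% of all genes, and with Anakinra 0 were called. The lowest were Fcer1g, the common chain of activating Fc receptors (324 TPM in vehicle and 98.2 TPM with the combination, log2 difference -1.70), and the integrin chain Itgam (81.8 and 24.8 TPM, -1.68). At the other end stood the kinases Prkcb (277 and 304 TPM, 0.14) and Prkcd (71.5 and 84.3 TPM, 0.22), neither of which passed. Both are also expressed by neurons, and both were lower in vehicle than in sham (-0.52 and -0.32), beside neuronal marker sums of 5824 to 6201 TPM in sham and 3532 to 4318 TPM in vehicle. For the combination against PLX3397, 0 of the 18 were called, with a median of -0.29.

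In bulk tissue, transcripts of the enzymes that supply NADPH and of those that remove superoxide and peroxide changed little with treatment. Their levels within phagocytes were not measured. Of all genes tested, 26.6% were called higher and 27.7% lower with injury, and 9.6% lower with the combination. Of 8 genes of NADPH supply, 6 rose with injury. With the combination 1 fell, Pgd, an enzyme of the pentose phosphate pathway (74.9 and 61.7 TPM, -0.27, limma adjusted p = 0.0133). Without vehicle mouse J01B or J17B, 2 were called. Taldo1, Rpia and Tkt, of the same pathway, were at -0.12, 0.07 and 0.08, without a call. Of 17 genes of superoxide and peroxide removal, 12 rose with injury and 1 fell, Sod2, the mitochondrial superoxide dismutase (143 to 118 TPM, -0.28). With the combination 3 fell, namely Gpx1 (-0.26), Prdx6 (-0.26) and Prdx1 (-0.24), all peroxidases, but 1 gene of the list was called without vehicle mouse J18B, J19B or J20B. Gpx3 had the lowest value of the list (-0.34) without passing, and Sod2 and Gpx4 had the highest (0.08 and 0.06).

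Of 8 targets of the oxidative stress factor Nrf2, counting Nfe2l2, the gene of Nrf2 itself, 6 rose with injury. Of all genes tested, 26.6% were called higher there, and 9.6% lower with the combination. Hmox1, which breaks down heme, went from 8.09 ± 0.787 TPM in sham to 330.4 ± 131 TPM in vehicle (SD, n = 4 and 5) and stood at 205 ± 50.4 TPM with the combination (SD, n = 5; log2 difference -0.62, limma adjusted p = 0.0879). Nfe2l2 fell by 0.47 with the combination (limma adjusted p = 0.00120), the only call of the list there, whereas 3 were called without vehicle mouse J17B. Nqo1 and Gclc were at 0.21 and 0.03. The median differences with the combination were -0.076 for NADPH supply, -0.028 for superoxide and peroxide removal and -0.048 for the Nrf2 targets, against 0.014 for all genes and -1.57 to -1.15 for Ncf1, Ncf4, Rac2 and Cyba, with Cybb below them.

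The genes whose levels followed the members most closely were found by Pearson's r with the mean log2(TPM + 1) of the 5 members over the 24 libraries. These were Myo1f (r = 0.996), Pik3ap1 (0.995), C1qc, Lcp1, Fcgr2b, C1qa, Itgb2, Fcer1g, C1qb and Grn (0.993 to 0.994). These values include the differences between the groups, and Rap1a reached 0.836 on the same measure, Cybc1 0.734 and Rac1 0.505. After subtraction of the group means, the 10 most alike were Gusb (r = 0.927), Cyth4 (0.917), Ctsz, Syngr2, Thbs1, Arpc1b, Ctsh, Tspo, Rab7b and Nckap1l (0.891 to 0.911). The lists share no gene. Cybc1 had r = 0.661 on that measure, Rap1a 0.019 and Rac1 -0.272. The libraries share composition and depth is unknown, so these values are descriptions.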

How the data were processed

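Poly(A) RNA of 24 mice was sequenced in paired-end mode, and per the labels the build was GRCm38. The authors mapped reads in CLC Genomics Workbench and deposited values labelled TPM, which sum to 1000000 per library. Read counts and library totals were not used here, so the depth is unknown, and the precision rests on the spread between mice. The number of mice, 4 or 5 per group, sets that precision. Replicates are separate mice. A rounded copy of the table served as an alternative, and a filtered copy with the authors' own p-values and F values was not used.

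Genes averaging 0.5 TPM or more over all libraries (17267) were fitted on log2(TPM + 1) in limma 3.58.1 (R 4.3.3), with 1 mean per group, all 24 libraries and a trend of the variance. Calls had a Benjamini-Hochberg adjusted p below 0.05 over all genes. The study names t-tests with 3 criteria, which were counted with limma's p. The script was tested on simulated data. Log ratios of members, and members minus marker lists, were tested by permuting mice exactly, two-sided (Python 3.11.15), adjusted over 50 and 25 tests. Sequences came from RefSeq, with promoters for 3 of 5 members.

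The members and lists were chosen with earlier results of these data known. All members and most partners are named, of each longer list the 2 lowest and 2 highest log2 differences of PLX3397+Anakinra against vehicle, the 10 genes most alike, and marker lists as sums. Prdx6, Prdx1, Lyz2, F13a1, Ms4a7, Ccr2 and Mmp8 were chosen after their values were seen. Cybc1 was matched through its NCBI gene ID. Some genes, a gene list and an alternative are not reported here.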

Additional observations from a re-analysis of the deposited data

How the results depend on the processing

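The alternatives were a pseudocount of 0.1 TPM, a filter only on TPM of 0, a minimum mean of 5 TPM (at which Ncf4 was not tested), median-ratio rescaling, no variance trend, the rounded table, only the groups compared, and each mouse left out. Of 875 alternative values of the 50 fold changes of members, 872 had the direction and call of the report. With only the groups compared, Cybb in the combination against PLX3397 missed the threshold (-0.80, adjusted p = 0.0625), which leaves 0 members called there; leaving out 1 mouse gave -0.92 to -0.73 with adjusted p-values of 0.00044 to 0.0367, and the pseudocount of 0.1 gave -0.97. Rac2 with Anakinra, not called, changed sign without Anakinra mouse J06 or vehicle mouse J18B (0.0115 and 0.0099, range -0.12 to 0.012). When the difference had to exceed 1 TPM and not 4, 5 members instead of 3 met the criteria for the combination against sham. With 4 TPM, 2.84% of genes met them as higher, and with 1 TPM the share of genes was not counted. Of the lists, superoxide and peroxide removal had 1 call and NADPH supply and other oxidases 0 with only the groups compared.

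Members relative to microglial genes were the least stable results. Their counts for vehicle against sham (5), PLX3397 against vehicle (1), the combination against vehicle (1) and against PLX3397 (2) were 0 with the macrophage list, which also turned Cybb (0.0167) and Ncf1 (0.48) in the last comparison and Ncf1 (-0.18) and Ncf4 (-0.24) with injury. The cause was not tested. Leaving out 1 mouse gave 0 for injury, where 4 against 4 or 3 against 5 mice limit the exact p, 0 to 1 for PLX3397, Anakinra and the combination against vehicle, and 0 to 2 against PLX3397.

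Vehicle and PLX3397 mice share 3 animal numbers. The correlations of their deviations were 0.173, -0.134 and -0.0656, and 1 of 3 was best with its own number. With group means taken over the mice of these pairs alone, the correlations were 0.217, 0.0218 and -0.157. So few pairs cannot settle whether the mice were linked. Vehicle mouse J17B also shares its number with combination mouse J17. All vehicle mice, and no others, carry the suffix B, whose meaning is not given. Anything that goes with this suffix cannot be told apart from vehicle treatment. A replicate block on these 3 pairs called 703 genes against 747 without it and kept the 5 members (Cybb -1.22, Cyba -1.07). TPM hold no counts, so the low sham levels of Cybb and Ncf4 have no counting interval.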
